A study of Mus musculus with 24 samples.

Results

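The cornified envelope genes of the mouse epidermis were examined by RNA-Seq in skin biopsies of C3H/HeJ mice that had alopecia areata (AA), an autoimmune loss of hair. Members were all genes whose symbol began with Lce or Sprr, together with Flg, Flg2, Lor, Ivl, Hrnr, Rptn, Crnn and Casp14, if they had at least 10 counts in at least 3 libraries. Of 27179 genes in the table, 44 had such a name and 43 passed. Sprr3 did not. All 43 also passed the filter for testing, which left 17770 genes, but 13 of them (Lce3a, Lce3b, Lce3d, Lce3e, Lce3f, Sprr2b, Sprr2d, Sprr2e, Sprr2f, Sprr2g, Sprr2i, Sprr2j-ps and Sprr2k) reached 10 counts in 3 libraries only through the pretreatment, vehicle and JAK2i libraries. The rule itself fixed that these 13 were lower in the other groups, so members were counted over the other 30.

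Skin was sampled in 24 libraries. After treatment there were 3 libraries each for the selective inhibitors of JAK1 (INCB039110, called JAK1i), of JAK2 (CEP-33779, called JAK2i) and of JAK3 (PF-06651600, called JAK3i), for ruxolitinib, which inhibits JAK1 and JAK2, for tofacitinib, which inhibits several JAKs, and for vehicle, and 6 libraries were taken before treatment, 1 for each cohort. The study describes biopsies taken before and after systemic treatment. By its methods, mice received JAK1i or JAK2i at 50 mg/kg and JAK3i, ruxolitinib or tofacitinib at 30 mg/kg, and treatment lasted 12 weeks for the vehicle and the selective inhibitors, with no duration given for ruxolitinib and tofacitinib, whereas the sample labels describe application to the skin in an ointment. All mice, vehicle included, carried the disease. Sex and age were not given in the sources used here. Neither was it given whether the 3 libraries of a group came from separate mice, so p-values measure the spread between libraries.

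The groups followed the column names of the count table. A second table of the same libraries, with 7 genes, names 6 of its 24 columns differently: JAK1i 2 and JAK2i 1 are exchanged, as are JAK1i 3 and JAK3i 1, and JAK2i 3 and JAK3i 2. The other 18 columns matched. Results were repeated without these 6 libraries, which does not test the naming of the second table. Library JAK1i 3 stood apart from JAK1i 1 and 2 in the cornified envelope genes, and their values in it are given separately. Total counts ranged from 17311913 to 21858670 per library, with a median of 19462756.5. Levels are CPM, the counts of a gene divided by the library size after TMM scaling. A gene was called when its adjusted p in edgeR's quasi-likelihood test was below 0.05, over all 17770 genes.

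The cornified envelope is the shell of crosslinked protein that replaces the plasma membrane of a keratinocyte as it leaves the granular layer and dies. Involucrin (Ivl) is laid down early, loricrin (Lor) makes up much of its mass, and the small proline-rich (Sprr) and late cornified envelope (Lce) proteins are joined to it by transglutaminases. Filaggrin (Flg), which belongs to the fused S100 proteins, bundles keratin filaments inside the shell, and caspase 14 (Casp14) helps to break filaggrin down. Sprr1, Sprr2 and Lce3 genes are known to rise in inflamed, wounded or hyperplastic skin, while Lor, Flg2 and the Lce1 genes belong to normal differentiation.

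By the RefSeq annotation of GRCm38.p6, 42 of the 43 members lie between 92080271 and 93399442 on chromosome 3, within 1.32 Mb, in the epidermal differentiation complex. Casp14 lies on chromosome 10. Lor is at one end (chr3:92080271-92083142) and Rptn at the other, with the Sprr genes next to Lor, then Ivl and the Lce genes, and the fused S100 genes last. The bases just upstream of the start site are given for 6 members that differed in their level after ruxolitinib and tofacitinib. All 6 were low after JAK3i, but Lor, Ivl, Flg2 and Lce1m kept a large part of the vehicle level after ruxolitinib and tofacitinib, or exceeded it, while Sprr1a and Crnn did not. Each sequence is the 250 bases before an annotated start, from RefSeq on GRCm38.p6, read 5′ to 3′ on the strand of the gene. For Ivl this start lies inside the annotated gene, which reaches 92573790, so the last bases shown fall within it. The reference is strain C57BL/6J, not C3H/HeJ. Capitals mark an AP-1 motif (TGANTCA, read on both strands) or a TATA box (TATAAA, read on the strand of the gene).
Lor: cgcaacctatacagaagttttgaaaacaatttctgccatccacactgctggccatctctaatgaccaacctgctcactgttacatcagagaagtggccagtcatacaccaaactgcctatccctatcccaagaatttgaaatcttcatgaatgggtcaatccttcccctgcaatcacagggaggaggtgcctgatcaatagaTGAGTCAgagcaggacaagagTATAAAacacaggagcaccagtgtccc
Flg2: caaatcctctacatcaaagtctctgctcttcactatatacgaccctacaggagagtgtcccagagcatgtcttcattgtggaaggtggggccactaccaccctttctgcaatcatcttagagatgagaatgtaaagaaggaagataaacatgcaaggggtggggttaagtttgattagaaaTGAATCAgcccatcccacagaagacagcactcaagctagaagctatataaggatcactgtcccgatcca
Lce1m: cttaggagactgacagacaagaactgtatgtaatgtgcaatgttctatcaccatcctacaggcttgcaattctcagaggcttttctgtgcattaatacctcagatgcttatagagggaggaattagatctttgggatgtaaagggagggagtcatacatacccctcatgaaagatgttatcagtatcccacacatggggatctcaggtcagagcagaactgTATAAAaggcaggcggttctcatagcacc
Ivl: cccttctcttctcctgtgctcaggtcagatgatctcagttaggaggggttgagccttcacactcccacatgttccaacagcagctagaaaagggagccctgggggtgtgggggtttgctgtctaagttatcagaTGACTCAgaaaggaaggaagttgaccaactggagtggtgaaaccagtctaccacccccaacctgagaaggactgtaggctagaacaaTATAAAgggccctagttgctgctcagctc
Sprr1a: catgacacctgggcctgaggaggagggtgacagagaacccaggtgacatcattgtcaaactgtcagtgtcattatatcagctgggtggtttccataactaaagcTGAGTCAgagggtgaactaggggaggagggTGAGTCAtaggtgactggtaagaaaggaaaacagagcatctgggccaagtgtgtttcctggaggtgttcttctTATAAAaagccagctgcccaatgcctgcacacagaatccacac
Crnn: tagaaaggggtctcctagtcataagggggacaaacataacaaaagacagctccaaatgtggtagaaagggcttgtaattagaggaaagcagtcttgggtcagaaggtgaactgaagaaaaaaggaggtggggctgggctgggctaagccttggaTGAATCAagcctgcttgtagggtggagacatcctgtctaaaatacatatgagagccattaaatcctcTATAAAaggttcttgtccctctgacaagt

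They lie at chr3:92083143-92083392 on the minus strand (Lor), chr3:93197023-93197272 on the plus strand (Flg2), chr3:93019062-93019311 on the minus strand (Lce1m), chr3:92573736-92573985 on the minus strand (Ivl), chr3:92485882-92486131 on the minus strand (Sprr1a) and chr3:93144539-93144788 on the plus strand (Crnn). An AP-1 motif was present upstream of 15 of the 40 members with an entry (37.5%), against 6.75% of all 32851 promoters of that length, and a TATA box upstream of 17 (42.5%), against 7.59%. Both motifs were found upstream of the neighbouring copies Sprr2b, Sprr2d, Sprr2e, Sprr2f, Sprr2h, Sprr2i and Sprr2k, so these promoters were not independent. AP-1 was upstream of 10 of 24 members called lower after both ruxolitinib and tofacitinib (41.7%), and of 5 of 13 called lower after neither (38.5%). The TATA box was upstream of 11 (45.8%) and 5 (38.5%) of these. Among the 6 shown, the AP-1 motif was found upstream of Lor, Flg2, Ivl, Sprr1a and Crnn, with 2 copies for Sprr1a. The match is a description of these letters only. The STAT motif TTCNNNGAA, read on both strands, was upstream of 2 members (5%, Lce1l and Sprr2a3), against 7.02% of all promoters. The interferon-stimulated response element motif was upstream of 0, against 2.98%, and the Grainyhead motif AACCNGTT upstream of 1 (2.5%, Rptn), against 1.79%.

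In vehicle skin the members summed to between 10171 and 11489.7 CPM, which was 1.01% to 1.12% of all counts. Per kilobase of exon, the highest mean levels in vehicle were 1917 CPM for Sprr1a, 1785 for Lor and 1783 for Sprr4, followed by 313 for Lce1a1. After JAK3i the sum was 151 to 183 CPM. After ruxolitinib it was 4079 to 4483 and after tofacitinib 4069 to 5300.4, so the groups did not overlap with vehicle or with JAK3i. JAK1i gave 315 and 331 CPM in libraries 1 and 2, and 6049.7 CPM in library 3. JAK2i gave 10115 to 11383 and pretreatment 9776 to 13087 CPM, and both overlapped with vehicle. In bulk skin, fewer cells of a type and less RNA per cell cannot be told apart.

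**Figure D1:**
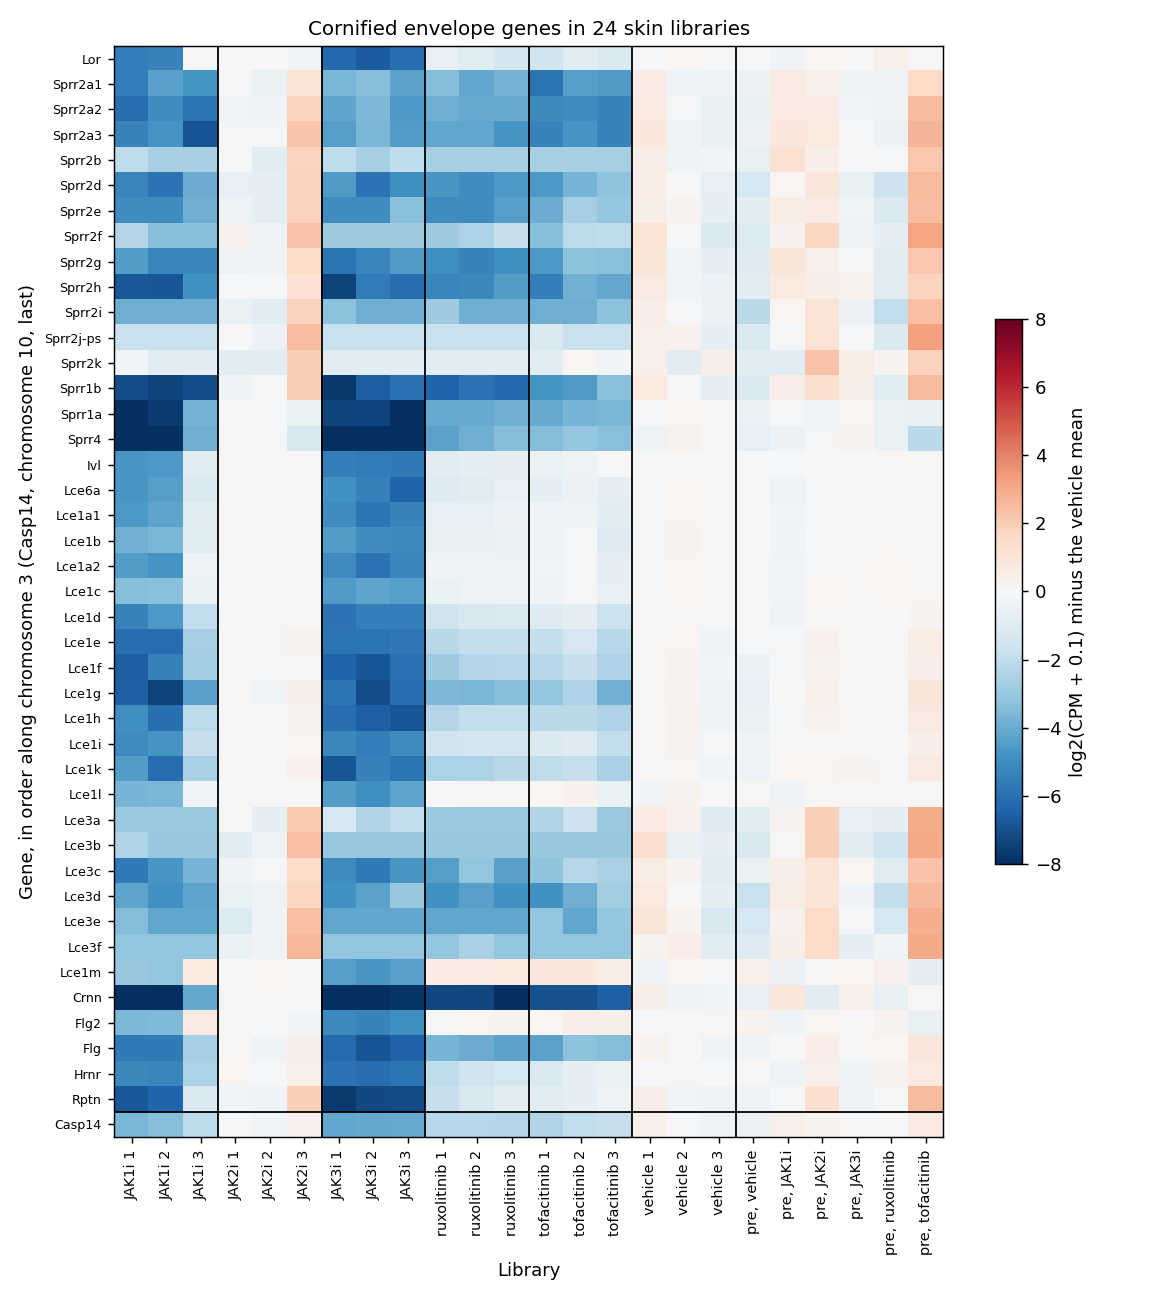
Level of each of the 43 members (rows, in order along chromosome 3 with Casp14 last) in each of the 24 libraries (columns), as log2(CPM + 0.1) minus the vehicle mean, where blue is lower than vehicle and red higher. JAK3i and JAK1i 1 and 2 are blue in nearly all rows, whereas JAK1i 3, ruxolitinib and tofacitinib are near white for Lor, Ivl, several Lce1 genes, Lce1m and Flg2.

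Nearly all cornified envelope genes were lower after JAK3i. Of the 30 members that did not rest on the pretreatment, vehicle and JAK2i libraries, 30 fell and 0 rose against vehicle, where 33.1% of all genes tested fell and 31.7% rose (34.7% and 34.0% without JAK1i 3 in the fit, with 30 members lower), and their median log2 fold change was -5.83, against 0.02 over all genes. In each JAK3i library the 30 members were below 10% of the vehicle mean. Without the 6 libraries of differing names, 1 JAK3i library was left, and the median of the 30 was -5.74. By the second table's names, JAK1i 3 and JAK2i 3 would be JAK3i libraries. In these, 9 (JAK1i 3) and 29 (JAK2i 3) of the 30 members were above 50% of the vehicle mean. The result for JAK3i thus depends on the names of the count table.

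Loricrin (Lor) had 41.8, 31.1 and 48.9 CPM after JAK3i, against 2923, 3471 and 3133 CPM in vehicle. The groups were far apart, with a log2 fold change of -6.29 ± 0.99 (SE, n = 3 each, edgeR adjusted p = 1.57e-05). Involucrin (Ivl) had 5.64, 5.16 and 4.97 CPM after JAK3i, against 255, 260.4 and 251 CPM in vehicle. Ivl fell by 5.60 on the log2 scale (SE 0.70).

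Filaggrin (Flg) had 22.2, 13.2 and 18.1 CPM after JAK3i, against 1893, 1601 and 1320.3 CPM in vehicle. Its relative Flg2 had 28.8, 23.2 and 32.2 CPM after JAK3i, against 857, 1037 and 1013 CPM in vehicle. Hornerin (Hrnr), another member of this family, had 14.2, 12.4 and 14.8 CPM after JAK3i, against 818, 930.4 and 826 CPM in vehicle. All 5 fused S100 members fell after JAK3i, with log2 fold changes from -8.57 (Crnn) to -5.11 (Flg2). Cornulin (Crnn) was nearly lost, with 0.158, 0.357 and 0.406 CPM after JAK3i, against 163, 97.2 and 99.5 CPM in vehicle. Repetin (Rptn) had 0.632, 0.868 and 0.913 CPM after JAK3i, against 210.2, 128 and 118 CPM in vehicle. Casp14, outside the cluster on chromosome 3, had 13.2, 13.7 and 14.8 CPM after JAK3i, against 318, 225 and 196 CPM in vehicle. It was the member with the smallest p (-4.15 ± 0.36, edgeR adjusted p = 8.74e-09).

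The Sprr genes encode the small proline-rich bridging proteins. Sprr1a had 8.8, 9.35 and 5.33 CPM after JAK3i, against 1419, 1718 and 1499.6 CPM in vehicle. Sprr4 had 1.26, 1.43 and 0.609 CPM after JAK3i, against 309.5, 501 and 425 CPM in vehicle, a log2 fold change of -8.54 ± 1.04 (edgeR adjusted p = 6.85e-07). Sprr2a3, the most abundant of the 12 Sprr2 members, had 2.06, 3.63 and 1.98 CPM after JAK3i, against 83.8, 38.8 and 30.7 CPM in vehicle. Reads of near-identical Sprr2 and Lce copies may have been split or dropped in counting, so values of single copies are uncertain. The 12 Sprr2 members together gave 5.43 to 9.55 CPM after JAK3i, against 101 to 252 CPM in vehicle. This sum includes the Sprr2 members whose lower level the count rule fixed, which are all but Sprr2a1, Sprr2a2, Sprr2a3 and Sprr2h.

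All 13 Lce1 members fell after JAK3i, with log2 fold changes from -7.06 to -4.40. Lce1m had 8.54, 7.05 and 8.82 CPM after JAK3i, against 147, 203 and 196 CPM in vehicle. Lce1g had 0.527, 0.153 and 0.406 CPM after JAK3i, against 36.8, 40.6 and 27.6 CPM in vehicle. Lce1k had 0.0527, 0.306 and 0.203 CPM after JAK3i, against 18.6, 18.6 and 15 CPM in vehicle. These 2 were among the 3 members of smallest p. Lce6a had 0.949, 0.613 and 0.254 CPM after JAK3i, against 28.3, 33.7 and 29.8 CPM in vehicle. The 6 Lce3 genes summed to 0.102 to 0.456 CPM after JAK3i, against 6.02 to 19.9 CPM in vehicle. All of them but Lce3c passed the count rule only through the pretreatment, vehicle and JAK2i libraries. The rule thus fixed that they were lower, and their values are description only. Lce3f had no count in any JAK3i library, against 0.966, 1.19 and 0.391 CPM in vehicle. With the floor of 3 counts taken over the group, this is a bound of at least 16.5-fold lower.

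**Figure D2:**
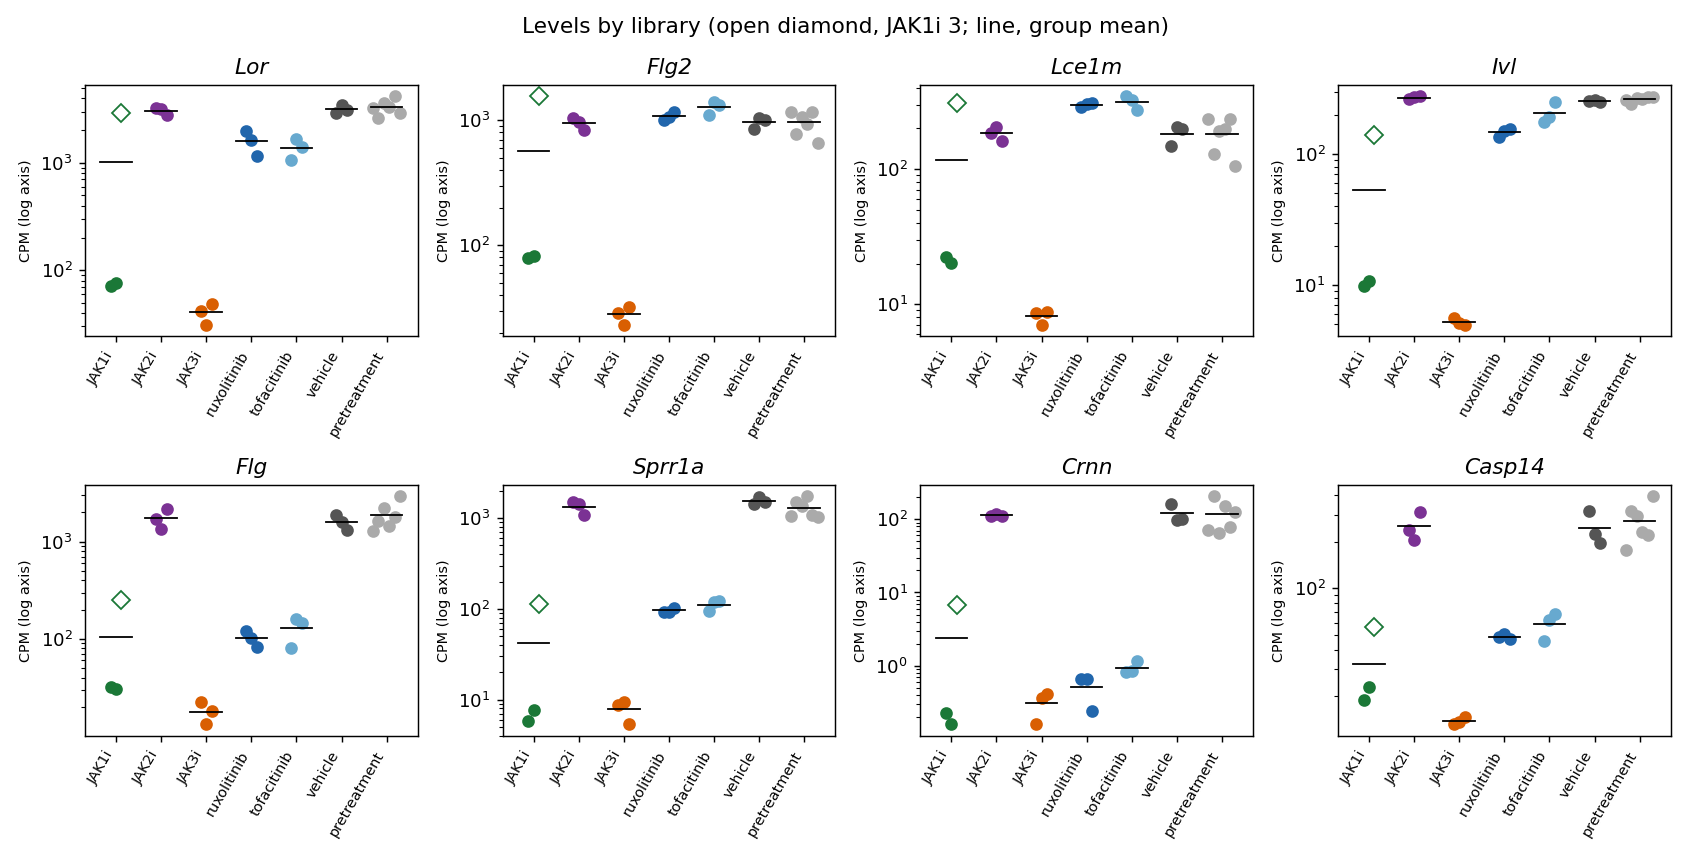
Level of 8 members in CPM on a log axis for each library of the 7 groups, with the group mean as a line and JAK1i 3 as an open diamond. For Lor, Flg2, Lce1m and Ivl the ruxolitinib and tofacitinib points lie within about an order of magnitude of vehicle and JAK3i lies far below, whereas for Flg, Sprr1a, Crnn and Casp14 ruxolitinib and tofacitinib also lie far below vehicle.

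JAK1i 1 and 2 were low in nearly all members, as JAK3i was, and JAK1i 3 was low in fewer. Of the 30 members, 29 were below 10% of the vehicle mean in each of JAK1i 1 and 2. In JAK1i 3, 10 were below 10% and 9 above 50%. Lor had 71.9 and 76.7 CPM in JAK1i 1 and 2 and 2890.3 CPM in JAK1i 3, against 2923, 3471 and 3133 CPM in vehicle. Flg2 had 79.5 and 81.8 CPM in JAK1i 1 and 2 and 1552 CPM in JAK1i 3, which was above all 3 vehicle libraries. Ivl had 9.89 and 10.7 CPM in JAK1i 1 and 2 and 139.6 CPM in JAK1i 3, against 255, 260.4 and 251 CPM in vehicle. For other members JAK1i 3 was low as well. Sprr1a had 5.81 and 7.63 CPM in JAK1i 1 and 2 and 113 CPM in JAK1i 3, against at least 1419 CPM in vehicle. Sprr1b had 0.223, 0.158 and 0.224 CPM in JAK1i 1, 2 and 3, against 74.4, 42.2 and 27 CPM in vehicle, with no separation of JAK1i 3.

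Flg, Hrnr, Casp14 and Rptn were each higher in JAK1i 3 than in JAK1i 1 and 2 and lower than in vehicle. Flg had 31.8 and 30.8 CPM in JAK1i 1 and 2 and 251 CPM in JAK1i 3, against 1893, 1601 and 1320.3 CPM in vehicle. Hrnr had 24 and 21.6 CPM in JAK1i 1 and 2 and 149 CPM in JAK1i 3, against 818, 930.4 and 826 CPM in vehicle. Casp14 had 18.9 and 23.1 CPM in JAK1i 1 and 2 and 55.9 CPM in JAK1i 3, against 318, 225 and 196 CPM in vehicle. Rptn had 1.23 and 1.74 CPM in JAK1i 1 and 2 and 66.1 CPM in JAK1i 3, against 210.2, 128 and 118 CPM in vehicle. Lce1m had 22.3 and 20.1 CPM in JAK1i 1 and 2 and 309 CPM in JAK1i 3, against 147, 203 and 196 CPM in vehicle, so that JAK1i 3 was above vehicle here too. Sprr4 had 0.782 and 1.1 CPM in JAK1i 1 and 2 and 26.4 CPM in JAK1i 3, against 309.5, 501 and 425 CPM in vehicle.

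Over the 43 members, the root mean square distance of JAK1i 3 in log2 CPM was 0.550 to 0.659 from the ruxolitinib libraries and 0.638 to 0.718 from the tofacitinib libraries. Its distance was 2.36 and 2.42 from JAK1i 1 and 2, 2.76 to 2.91 from JAK3i and 2.14 to 2.70 from vehicle. JAK1i 3 was within the range of the 6 ruxolitinib and tofacitinib libraries for 29 members, below it for 10 and above it for 4. Its names differ between the deposited tables, as do those of JAK1i 2. The distances and counts of this paragraph include the 13 members whose lower level the count rule fixed. They are thus partly set by the rule and are description only.

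With all 3 JAK1i libraries, 27 of the 30 members fell against vehicle and 0 rose, where 35.4% of all genes tested fell and 28.8% rose, and the median log2 fold change of the 30 was -3.60. Lor, at -1.65 ± 0.81 (SE), Flg2, at -0.76 ± 0.66, and Lce1m, at -0.64 ± 0.62, were not called. Without JAK1i 3 in the fit, 30 of 30 fell, 39.6% of all genes fell and 29.6% rose, and the median was -5.31. Lor, Flg2 and Lce1m then fell, with log2 fold changes of -5.42 ± 0.28, -3.59 ± 0.23 and -3.10 ± 0.29. Without the 6 libraries of differing names, JAK1i 1 was left, and the median of the 30 was -5.30. By the second table's names, JAK2i 1 would be a JAK1i library, and in it 30 of the 30 were above 50% of the vehicle mean.

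JAK3i and JAK1i were compared directly, although the systemic doses differ (30 mg/kg for JAK3i and 50 mg/kg for JAK1i). With all libraries, 23 of the 30 members were lower after JAK3i than after JAK1i and 0 were higher, where 21.9% of all genes tested were lower and 21.0% higher. This count depended on the fit, with 15 members lower by DESeq2 and 0 when only these 2 groups were fitted. The share of all genes called was not determined for these 2 fits. Sprr1a was lower and Sprr1b was not called, nor was any Sprr2 or Lce3 member. Without JAK1i 3, 12 of the 30 were lower after JAK3i, where 23.7% of all genes were lower and 25.3% higher, and the median of the 30 was -0.73. These 12 were Lor, Ivl, Flg, Flg2, Hrnr, Lce6a and 6 Lce1 genes. Ivl was 0.97 lower on the log2 scale (SE 0.12, edgeR adjusted p = 1.75e-06) and Flg2 was 1.53 lower (SE 0.20, edgeR adjusted p = 2.64e-06). Without the 6 libraries of differing names, 1 library of each inhibitor was left, and the median of the 30 was -0.49.

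After ruxolitinib and tofacitinib the change varied widely among the members. Against vehicle, 19 of the 30 fell and 0 rose after ruxolitinib, where 27.2% of all genes fell and 23.6% rose, with a median log2 fold change of -2.08. After tofacitinib 18 of the 30 fell and 0 rose, where 28.2% of all genes fell and 24.8% rose, with a median of -1.93. The fit shares 1 estimate of the spread over all groups, and without JAK1i 3 in it 26 fell and 1 rose after ruxolitinib (30.5% and 27.3% of all genes), and 25 fell and 1 rose after tofacitinib (31.5% and 28.4%). The gene that rose was Lce1m in both. Between 9 and 10 of the 30 were above 50% of the vehicle mean in each ruxolitinib library, and between 10 and 13 in each tofacitinib library.

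Flg2, Lce1l and Lce1m were the members with a log2 fold change above 0 after both drugs. Flg2 had 997, 1062 and 1169 CPM after ruxolitinib and 1099, 1394 and 1328 CPM after tofacitinib, against 857, 1037 and 1013 CPM in vehicle. The libraries of ruxolitinib and vehicle overlapped and Flg2 was not called in either treatment, with or without JAK1i 3. Its log2 fold change was 0.15 ± 0.66 after ruxolitinib and 0.39 ± 0.66 after tofacitinib (SE). Lce1m had 285, 303 and 309 CPM after ruxolitinib and 345, 323 and 275 CPM after tofacitinib, against 147, 203 and 196 CPM in vehicle. All 6 treated libraries were above all 3 of vehicle, at log2 fold changes of 0.71 ± 0.62 and 0.79 ± 0.62, which were not called with JAK1i 3 in the fit. Without it the errors were 0.22 for both and the edgeR adjusted p was 0.00856 after ruxolitinib and 0.00427 after tofacitinib.

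Lor and Ivl lay between these and JAK3i. Lor had 1974, 1624 and 1162 CPM after ruxolitinib and 1060.3, 1659.9 and 1394 CPM after tofacitinib, against 2923, 3471 and 3133 CPM in vehicle. The groups did not overlap, but Lor was not called, with an interval of the log2 fold change from -2.66 to 0.65 after ruxolitinib (95%) and a log2 fold change of -1.21 ± 0.80 after tofacitinib. Without JAK1i 3 the errors were 0.20 for both, and Lor fell after ruxolitinib (edgeR adjusted p = 2.10e-04) and after tofacitinib (2.61e-05). Ivl had 135, 149 and 156 CPM after ruxolitinib and 176, 191 and 248 CPM after tofacitinib, against 255, 260.4 and 251 CPM in vehicle. Its log2 fold change of -0.80 after ruxolitinib and of -0.32 after tofacitinib was called in both without JAK1i 3 and in neither with it. Lce6a was similar, with 15.1, 17.3 and 19.4 CPM after ruxolitinib and 18.3, 21.8 and 18.7 CPM after tofacitinib, against 28.3, 33.7 and 29.8 CPM in vehicle.

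Filaggrin (Flg) was far lower than vehicle where Flg2 was not. Flg had 119, 102 and 82.2 CPM after ruxolitinib and 81.1, 161 and 144 CPM after tofacitinib, against 1893, 1601 and 1320.3 CPM in vehicle. Its log2 fold changes were -3.99 ± 0.61 (edgeR adjusted p = 2.17e-05) and -3.64 ± 0.60 (4.10e-05). Hornerin (Hrnr) had 212, 278 and 319 CPM after ruxolitinib and 371, 513 and 591 CPM after tofacitinib, against 818, 930.4 and 826 CPM in vehicle. Hrnr fell after ruxolitinib (-1.67 ± 0.48, edgeR adjusted p = 0.00723), whereas its value of -0.80 ± 0.48 after tofacitinib was called only without JAK1i 3. Rptn had 40.9, 60.4 and 83.3 CPM after ruxolitinib and 79.7, 84.4 and 111 CPM after tofacitinib, against 210.2, 128 and 118 CPM in vehicle, and was not called in either fit.

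Cornulin (Crnn) was nearly lost. It had 0.652, 0.65 and 0.243 CPM after ruxolitinib and 0.832, 0.835 and 1.17 CPM after tofacitinib, against 163, 97.2 and 99.5 CPM in vehicle. Its log2 fold change of -7.83 ± 0.83 after ruxolitinib stood beside -8.57 ± 0.90 after JAK3i, and the difference between the 2 treatments was -0.74 ± 1.36 for JAK3i against ruxolitinib (edgeR adjusted p = 0.705). Here JAK1i 3, at 6.83 CPM, was the highest of the JAK1i, JAK3i, ruxolitinib and tofacitinib libraries. Casp14 had 48.6, 50.6 and 46.9 CPM after ruxolitinib and 45.6, 62.6 and 67.9 CPM after tofacitinib, against 318, 225 and 196 CPM in vehicle, and fell in both.

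Sprr1a, Sprr1b and Sprr4 fell after both drugs, as did the 4 Sprr2 genes among the 30 (Sprr2a1, Sprr2a2, Sprr2a3 and Sprr2h). Sprr1a had 92.9, 93.6 and 104 CPM after ruxolitinib and 94.5, 119 and 121 CPM after tofacitinib, against 1419, 1718 and 1499.6 CPM in vehicle. Sprr1b had 0.419, 0.65 and 0.485 CPM after ruxolitinib and 1.47, 1.77 and 4.25 CPM after tofacitinib, against 74.4, 42.2 and 27 CPM in vehicle. Sprr4 had 20.9, 26.6 and 35.9 CPM after ruxolitinib and 36.7, 46.4 and 39.6 CPM after tofacitinib, against 309.5, 501 and 425 CPM in vehicle. All Sprr2 members, including those whose lower level the count rule fixed, summed to 6.89 to 7.97 CPM after ruxolitinib. The sum was 3.23 to 6.58 CPM after tofacitinib, against 101 to 252 CPM in vehicle. Sprr2a1 had 1.96, 1.21 and 1.55 CPM after ruxolitinib and 0.294, 0.983 and 0.902 CPM after tofacitinib, against 36.8, 18.8 and 17.3 CPM in vehicle. Lce3c, the most abundant Lce3 gene, had 0.14, 0.476 and 0.146 CPM after ruxolitinib and 0.441, 0.933 and 0.743 CPM after tofacitinib, against 7.68, 5.86 and 2.74 CPM in vehicle.

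Within the Lce1 family the change after ruxolitinib varied along the chromosome. Lce1a1, Lce1b, Lce1a2 and Lce1c had log2 fold changes from -0.60 to -0.39. The next genes were lower by more, with -1.33 for Lce1d, -2.03 for Lce1e, -2.48 for Lce1f and -3.61 for Lce1g. Values then returned through -2.14 for Lce1h, -1.53 for Lce1i and -2.47 for Lce1k to 0.02 for Lce1l and 0.71 for Lce1m. Lce1d to Lce1k were called, and the genes at both ends were not with JAK1i 3 in the fit. Tofacitinib gave -3.08 for Lce1g and 0.04 for Lce1l, and both comparisons share the vehicle libraries. After JAK3i the same genes spanned -7.06 to -4.40. Lce1g had 2.75, 2.64 and 3.2 CPM after ruxolitinib, against 36.8, 40.6 and 27.6 CPM in vehicle, whereas Lce1l had 41.6, 44.8 and 44.5 CPM after ruxolitinib, against 37, 51.1 and 41 CPM in vehicle. Lce1k, with 2.89, 2.95 and 3.59 CPM after ruxolitinib against 18.6, 18.6 and 15 CPM in vehicle, lies next to Lce1l.

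**Figure D3:**
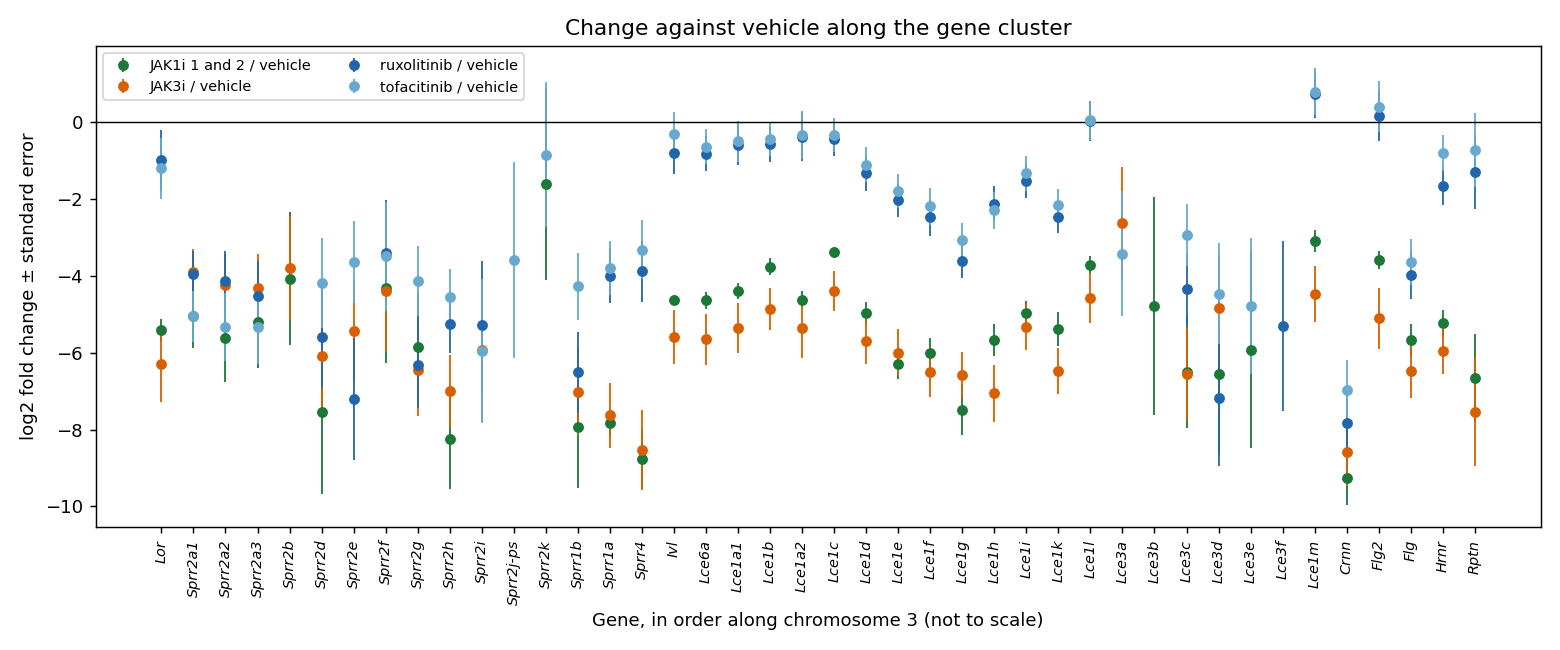
Log2 fold change against vehicle (points, with the standard error as bars) for the 42 members on chromosome 3 in gene order, for JAK1i 1 and 2, JAK3i, ruxolitinib and tofacitinib, where a member without counts in the treated group has no point and JAK1i was fitted without JAK1i 3. Ruxolitinib and tofacitinib lie between -1.21 and 0.79 for Lor, for Ivl to Lce1c, and for Lce1l, Lce1m and Flg2, and ruxolitinib dips to -3.61 at Lce1g, while JAK3i lies at -2.64 or below for every member plotted. Members whose lower level the count rule fixed are included.

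JAK3i, ruxolitinib and tofacitinib share the systemic dose of 30 mg/kg given in the methods, although no duration is given for the last 2. Here 23 of the 30 members were lower after JAK3i than after ruxolitinib and 0 were higher, where 19.0% of all genes tested were lower and 17.5% higher. Without JAK1i 3 the counts were 23 and 0, where 22.2% were lower and 21.6% higher. Against tofacitinib, 23 were lower after JAK3i and 0 were higher, where 20.7% of all genes were lower and 18.7% higher (23.5% and 22.8% without JAK1i 3). These 2 comparisons were chosen after the data had been seen. All 13 Lce1 genes, Lce6a, Lor, Ivl, Casp14, Sprr1a, Sprr4, Flg, Flg2, Hrnr and Rptn were lower after JAK3i than after ruxolitinib. Lor differed by -5.29 ± 0.95 and Flg2 by -5.26 ± 0.79 (SE, JAK3i against ruxolitinib). No Sprr2 or Lce3 member was called, and these were at 3.63 CPM or less in every library of JAK3i and ruxolitinib. Tofacitinib against ruxolitinib gave 0 calls among the members, 0 also at an unadjusted p below 0.05, and 0 with DESeq2, where 0.135% of all genes were higher and 0.236% lower. The interval of the difference was wide, from -1.85 to 1.43 for Lor and from -1.13 to 1.62 for Flg2 on the log2 scale (95%). Without JAK1i 3, Ivl was higher after tofacitinib than after ruxolitinib, by 0.48 (edgeR adjusted p = 0.00755), where 1.14% of all genes were higher and 0.949% lower.

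JAK2i gave 0 calls among the 43 members against vehicle, 0 at an unadjusted p below 0.05 and 0 with DESeq2, and 0.00% of all genes tested were called. Of the 17770 genes, 213 had an unadjusted p below 0.05 here, so the 0 is not particular to the members. The median log2 fold change of the members was 0.14, with a range from -0.37 to 1.42. Lor had 3216, 3157 and 2773 CPM after JAK2i, against 2923, 3471 and 3133 CPM in vehicle. The interval of its log2 difference ran from -1.70 to 1.58 (95%), and that of Casp14 from -0.62 to 0.68. Without the 6 libraries of differing names, JAK2i 2 was left, and the median log2 fold change of the 30 members was -0.11. By the second table's names, JAK1i 2 and JAK3i 2 would be JAK2i libraries. In these, 29 (JAK1i 2) and 30 (JAK3i 2) of the 30 members were below 10% of the vehicle mean. The result for JAK2i thus depends on the names of the count table. Vehicle against pretreatment also gave 0 calls among the members, 0 at an unadjusted p below 0.05 and 0 with DESeq2, where 0.00% of all genes tested were called. Of the 17770 genes, 232 had an unadjusted p below 0.05 in this comparison, so the 0 is not particular to the members.

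The JAK2i, vehicle and pretreatment libraries nevertheless differed among themselves in Sprr2, Lce3, Sprr1b, Rptn, Sprr4 and Sprr1a. The Sprr2 genes summed to 522 CPM in JAK2i 3 and to 783 CPM in the pretreatment library of the tofacitinib cohort, against 101 to 252 CPM in vehicle. Rptn had 129, 123 and 552 CPM after JAK2i, against 210.2, 128 and 118 CPM in vehicle and 119 to 859.7 CPM (median 134) in pretreatment. Sprr1b had 35.7, 44.2 and 173 CPM after JAK2i, against 74.4, 42.2 and 27 CPM in vehicle and 20 to 259.5 CPM (median 62.2) in pretreatment. Sprr4 went the other way, with 423, 368 and 163 CPM after JAK2i, against 309.5, 501 and 425 CPM in vehicle and 91.9 to 479 CPM (median 287) in pretreatment. Sprr1a had 1493, 1428 and 1071 CPM after JAK2i, against 1419, 1718 and 1499.6 CPM in vehicle and 1032 to 1751 CPM (median 1213) in pretreatment, so that it too was low in JAK2i 3. Lor and Ivl spread less, with 2640.1 to 4155 CPM and 243 to 275 CPM in pretreatment. JAK2i 3 is 1 of the 6 libraries whose names differ between the tables.

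**Figure D4:**
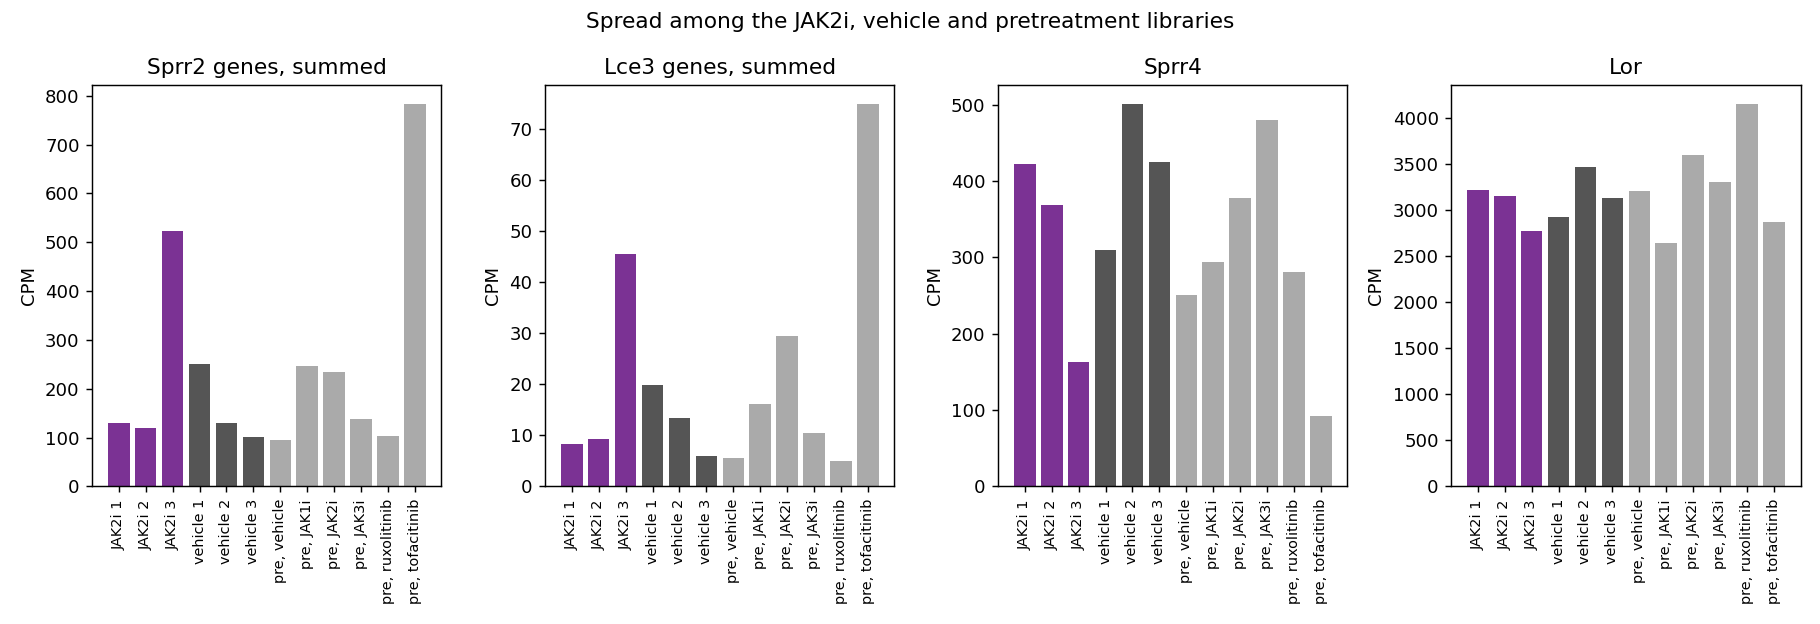
Summed CPM of the 12 Sprr2 and of the 6 Lce3 members, and CPM of Sprr4 and Lor, as bars for each JAK2i, vehicle and pretreatment library. JAK2i 3 and the pretreatment library of the tofacitinib cohort are highest in Sprr2 (522 and 783 CPM) and Lce3 and lowest in Sprr4 (163 and 91.9 CPM), while Lor varies little.

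Other genes of cornification were counted from lists of the pathway. Their counts are read beside the shares of all genes tested. Of these, 33.1% fell and 31.7% rose after JAK3i, and 35.4% fell and 28.8% rose after JAK1i. After ruxolitinib 27.2% fell and 23.6% rose, and after tofacitinib 28.2% fell and 24.8% rose. Without JAK1i 3 in the fit, 39.6% fell and 29.6% rose after JAK1i. Then 30.5% fell and 27.3% rose after ruxolitinib, and 31.5% fell and 28.4% rose after tofacitinib. Among further envelope and cell adhesion proteins, 18 of 18 tested fell after JAK3i, 13 after JAK1i (17 without JAK1i 3), 8 after ruxolitinib (1 rose) and 7 after tofacitinib (1 rose). Without JAK1i 3 in the fit, 13 fell and 1 rose after ruxolitinib, and 10 fell and 4 rose after tofacitinib. Those with the smallest p after ruxolitinib were Tchhl1, Tchh and Prr9, of which trichohyalin (Tchh) is a protein of the inner root sheath. Tchh averaged 22.7 CPM after ruxolitinib, against 4346 CPM in vehicle. Among 14 crosslinking and processing enzymes, 13 fell after JAK3i, 13 after JAK1i with or without JAK1i 3, and 10 fell and 1 rose after each of ruxolitinib and tofacitinib. Without JAK1i 3 in the fit, 11 fell and 1 rose after each of these 2 drugs. Padi1 and Padi3, which convert arginine to citrulline in proteins such as filaggrin and trichohyalin, had log2 fold changes of -7.18 ± 0.65 (Padi1) and -8.23 ± 0.77 (Padi3) after ruxolitinib. Among 17 genes of the lipid barrier, 17 fell after JAK3i and 14 after JAK1i (17 without JAK1i 3). With JAK1i 3 in the fit, 4 of the 17 fell and 1 rose after ruxolitinib, and 2 fell and 3 rose after tofacitinib. These shares were no larger than those of all genes. Without JAK1i 3, 13 fell and 2 rose after ruxolitinib, and 7 fell and 3 rose after tofacitinib. The shares that fell were then above the 30.5% and 31.5% of all genes. Pnpla1, which is needed to make the acylceramides of the barrier, averaged 5.11 CPM after JAK3i and 28.9 CPM after ruxolitinib, against 82.7 CPM in vehicle.

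Among 24 transcription regulators of keratinocyte differentiation, 19 fell and 1 rose after JAK3i, 15 fell and 1 rose after JAK1i (18 and 1 without JAK1i 3), 14 fell and 1 rose after ruxolitinib, and 15 fell and 0 rose after tofacitinib. Of all genes tested, 33.1% fell after JAK3i, 35.4% after JAK1i, 27.2% after ruxolitinib and 28.2% after tofacitinib. The shares that rose were 31.7%, 28.8%, 23.6% and 24.8% in the same order. Ovol1, a repressor that acts as keratinocytes leave the cell cycle, averaged 11.2 CPM after JAK3i and 45.5 CPM after ruxolitinib, against 97.6 CPM in vehicle. Of 12 S100 genes tested from the same cluster, 9 fell and 2 rose after JAK3i, 8 fell and 1 rose after JAK1i (9 and 1 without JAK1i 3), 7 fell and 2 rose after ruxolitinib, and 7 fell and 3 rose after tofacitinib. S100a3, a gene of the hair cuticle, averaged 1.22 CPM after JAK3i and 2.44 CPM after ruxolitinib, against 209 CPM in vehicle. JAK2i gave 0 calls in each of these lists, where 0.00% of all genes tested were called.

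Markers of other epidermal layers and of other tissues differed with the treatments as well. The 4 suprabasal keratin genes (Krt1, Krt10, Krt2, Krt77) summed to 1182 to 1588 CPM after JAK3i, to 2073 and 2209 CPM in JAK1i 1 and 2 and 11521 CPM in JAK1i 3, to 7577 to 9161 CPM after ruxolitinib and to 7293 to 10087 CPM after tofacitinib, against 13197 to 15246 CPM in vehicle. The 5 basal keratinocyte genes (Krt5, Krt14, Col17a1, Itga6, Itgb4) differed less in sum, with 7872 to 10039.5 CPM after JAK3i, 11698 and 12925 CPM in JAK1i 1 and 2 and 7851 CPM in JAK1i 3, 7305 to 8558 CPM after ruxolitinib and 7186 to 8648 CPM after tofacitinib, against 11839 to 13325 CPM in vehicle. Single genes went both ways. Of the 5, 1 rose and 3 fell after JAK3i, and 3 rose and 1 fell after JAK1i. After ruxolitinib 1 rose and 2 fell, and after tofacitinib 0 rose and 2 fell. Per unit of the basal sum, the members stood at 0.0163 to 0.0231 after JAK3i, 0.0270 and 0.0256 in JAK1i 1 and 2 and 0.771 in JAK1i 3, 0.524 to 0.558 after ruxolitinib and 0.554 to 0.674 after tofacitinib, against 0.834 to 0.897 in vehicle. JAK3i and JAK1i 1 and 2 were below ruxolitinib and tofacitinib on this scale too, and these were below vehicle.

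**Figure D5:**
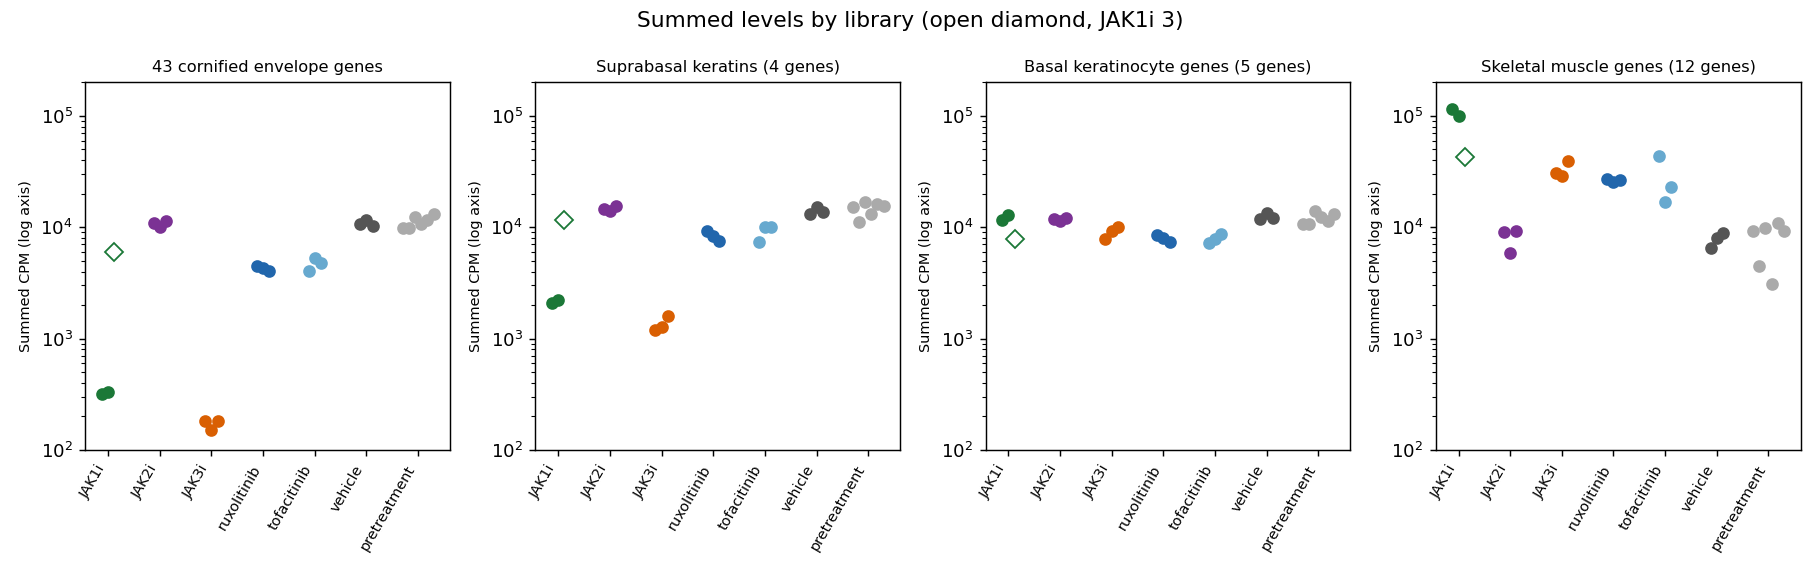
Summed CPM on a log axis, by library, of the 43 members and of the suprabasal keratin, basal keratinocyte and skeletal muscle marker lists, with JAK1i 3 as an open diamond. The members and the suprabasal keratins are lowest after JAK3i and in JAK1i 1 and 2, the basal genes stay between 7186 and 13876 CPM in all libraries, and the muscle genes are higher in all libraries of JAK1i, JAK3i, ruxolitinib and tofacitinib than in vehicle.

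Hair follicle genes fell in the same 4 groups. Counts of the marker genes are read beside the shares of all genes given above for the cornification lists. All 7 inner root sheath genes fell after JAK3i, JAK1i, ruxolitinib and tofacitinib. Their sum was 21.7 to 28 CPM after JAK3i, 35.6 and 36 CPM in JAK1i 1 and 2 and 551 CPM in JAK1i 3, 32.6 to 51 CPM after ruxolitinib and 28.6 to 30.4 CPM after tofacitinib, against 8176 to 13768 CPM in vehicle, and none of the 7 was at 0 in any library. All 9 hair shaft genes fell in the same 4 groups, and Krt34 was at 0 in tofacitinib 3. The 4 keratins of activated keratinocytes (Krt6a, Krt6b, Krt16, Krt17) also fell in all 4 groups, with a sum of 291 to 426 CPM after JAK3i and 1216 to 1278 CPM after ruxolitinib, against 7177 to 8214 CPM in vehicle. Skeletal muscle genes rose, 12 of 12 after JAK1i (11 without JAK1i 3) and 11 of 12 after each of JAK3i, ruxolitinib and tofacitinib, with sums of 99080.5 and 114148 CPM in JAK1i 2 and 1, 42826 CPM in JAK1i 3, 28559 to 38913 CPM after JAK3i, 25519 to 27176 CPM after ruxolitinib and 16775 to 43831 CPM after tofacitinib, against 6535 to 8882 CPM in vehicle, and none was at 0. All 8 adipocyte genes rose in these 4 groups (7 after JAK1i without JAK1i 3), to sums of 6377 to 7789 CPM after JAK3i, against 695 to 832 CPM in vehicle. All 8 T cell genes fell in the same 4 groups. The 6 fibroblast genes summed to 612 and 646 CPM in JAK1i 1 and 2 and 4171 CPM in JAK1i 3, against 3249 to 4705 CPM in vehicle, and 6 fell after JAK1i without JAK1i 3. The 6 macrophage genes summed to 74.6 and 72.8 CPM in JAK1i 1 and 2 and 359.9 CPM in JAK1i 3, against 578 to 653 CPM in vehicle, and 6 fell after JAK1i with or without JAK1i 3, whereas 4 rose after JAK3i. The part of hair follicle, muscle and fat RNA, tissue depth and cell makeup in the change of the cornified envelope genes was not tested.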

How the data were processed

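The deposited count table holds raw read counts per Entrez gene, made by the authors with Subread on mm10 (GRCm38). Aligner settings, annotation and strand setting are not given in the sources used here. The notes of the submitters also name DESeq2 1.18.1. The other deposited table holds 7 signature genes on another scale set by the authors, with z scores of 5 of them. It was used only to check column names.

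The tests used edgeR 4.0.16 (R 4.3.3). Low genes were removed with filterByExpr (minimum count 10, minimum total 15), TMM gave the scaling, and all 24 libraries entered 1 quasi-likelihood fit, with a term for each of the 7 groups. P-values were adjusted by Benjamini-Hochberg over 17770 genes. A fold against a group without counts is a bound, with 3 counts over the group. Standard errors are the absolute log2 fold change divided by the root of F. Reads of near-identical Sprr2 and Lce copies cannot be assigned with certainty. The script was tested on simulated data. Sequences and gene positions came from RefSeq (GRCm38.p6).

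Members and lists were chosen with earlier results of these data known. Values are given for Lor, Ivl, Flg, Flg2, Hrnr, Rptn, Crnn and Casp14, for the most abundant member of each Lce and Sprr family, and for the 3 members of smallest p in each comparison of an inhibitor with vehicle. Other Lce1 genes, the 6 promoters, JAK3i against ruxolitinib and JAK3i against tofacitinib, the counts over 30 members, and the fits without JAK1i 3 or the 6 renamed libraries were chosen after values were seen. From the lists of other genes, at most 4 a list were named, by smallest p. Alternatives were DESeq2 1.42.0, RLE scaling, total counts, no filter, a stricter filter, the 2 groups compared, the 18 posttreatment libraries with and without a replicate block, pretreatment as the reference, and leaving out each library.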

Additional observations from a re-analysis of the deposited data

Results flagged for a closer look

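Among the 6 pretreatment libraries, 1 library lay far from the others in several members (its gap to the nearest library, divided by the whole range, was above Dixon's critical value, as chance gives in about 1 group of 20). The pretreatment library of the tofacitinib cohort had 24.4 CPM of Lce3c, 7.21 CPM of Lce3f, 859.7 CPM of Rptn, 259.5 CPM of Sprr1b and 307 CPM of Sprr2a3. Its summed levels were 74.8 CPM for Lce3 and 783 CPM for Sprr2. Of all 43 members, 15 had such a library. The pretreatment library of the JAK1i cohort was low in the summed Lce1 genes, at 985 CPM.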

How the results depend on the processing

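The counts of members called, here over all 43 members, equalled the main count or lay within 1.5 times of it in 329 repeats. These include repeats with 0 calls in both. Of the 43, 13 passed only through groups in which they were high, so the count rule fixed that these were lower. For the refits, the share of all genes called was determined only without JAK1i 3. The other 11 repeats were as follows. JAK3i against JAK1i had 23 lower members with all libraries, 15 with DESeq2, 0 when only these 2 groups were fitted and 8 without the 6 renamed libraries, and leaving out each library gave 12 to 23, with 12 without JAK1i 3. JAK3i against ruxolitinib had 15 lower with DESeq2. Fitting only the 2 groups gave 1 higher member after ruxolitinib and 2 after tofacitinib, both against vehicle, and 2 for JAK3i against tofacitinib. Leaving out each library gave 0 to 1 higher members after ruxolitinib and after tofacitinib against vehicle, and for tofacitinib against ruxolitinib, with 1 only without JAK1i 3. The cause was not tested, apart from the fewer libraries. Against vehicle, leaving out each library gave between 29 and 37 lower for JAK1i, between 36 and 39 for JAK3i, between 25 and 35 for ruxolitinib and between 22 and 34 for tofacitinib, and the highest of the last 2 came without JAK1i 3.

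For JAK3i against JAK1i, leaving out each library gave log2 fold changes of -3.54 to 0.68 for Crnn, -2.99 to 0.22 for Sprr1a and -3.67 to 0.21 for Sprr4. The sign turned without JAK1i 3, with no call, and to 0.75 (Crnn) without the 6 renamed libraries. Of 45 same-numbered pairs of libraries, 4 correlated above 0.1, the highest at 0.290. Differently numbered pairs were not compared, so a pairing by replicate number was neither shown nor excluded. With the replicate block the lower members numbered 37 after JAK1i, 39 after JAK3i, 29 after ruxolitinib and 26 after tofacitinib against vehicle, and 19 for JAK3i against JAK1i. These counts are over all 43 members, including the 13 whose lower level the count rule fixed, and the share of all genes called was not determined for this fit. Low counts of Sprr2 and Lce3 genes limit their folds.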
